A study of Xenopus laevis with 2 samples.

Results

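The mRNAs of DEAD-box and DEAH-box RNA helicases were followed in the RNA-seq data of *Xenopus laevis* retinal ganglion cell (RGC) axons. Members were taken by symbol: every listed gene name that holds a symbol starting with ddx or dhx and a digit. This gave 62 of 49349 gene names, under 47 symbols. DEAD-box symbols (ddx) accounted for 43 names and 34 symbols, and DEAH-box symbols (dhx) for 19 names and 13 symbols. The endings L and S mark the homeologs of the allotetraploid frog genome, and 15 symbols are listed under separate L and S names. The series has a single group of 2 replicate libraries, each made from the axons of 500 eyes pooled. Whole eyes of stage 33/34 to 37/38 embryos were grown for 48 h on filters with 1 µm pores, which axons cross and cell bodies do not, and the cell bodies were then taken off. The labels name no genotype, strain or treatment, and libraries of cell bodies or whole eyes were not analysed here. The values below therefore say which helicase mRNAs were found in the axon libraries and at what level. They do not say whether these mRNAs were enriched in axons.

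Helicases of this superfamily use ATP to open short RNA duplexes or to strip proteins from RNA. They are named for the amino acids of their ATP-binding motif, Asp-Glu-Ala-Asp or Asp-Glu-Ala-His. DEAD-box proteins act locally on short stretches and are found at each step of the life of an mRNA, from splicing and nuclear export to initiation, storage and decay, and also in ribosome assembly. Most DEAH-box proteins move along the RNA strand, and several of them drive the rearrangements of the spliceosome. In neurons, ddx3x and ddx6 proteins are known components of RNA granules.

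Values are FPKM, in which fragments are divided by transcript length and by library size. The cDNA was amplified by a protocol made for single cells, and its effect on levels between genes was not tested. Ranks and medians below are those of the values as given. A name was taken as detected with FPKM over 1 in both libraries, the limit that the study set for its GO analysis. Total depth is unknown. By the steps of low values, replicate 1 was estimated to be 3.71 times as deeply sequenced, so that a single read weighed less in it. Of the RGC and axon markers, gap43 and stmn2 were detected, 2 of 11, and the neurofilament and RGC transcription factor genes of the list were listed at 0. The average level was 2.98 FPKM for gap43.L, close to the limit, and 200.1 FPKM for stmn2.L and 490.4 FPKM for stmn2.S. Of the 32 listed markers of other cells, 5 were detected, of Müller glia (glul, rlbp1), pigment epithelium (dct), connective tissue (col1a1) and dividing cells (pcna), with average levels from 3.14 FPKM for col1a1.L to 112 FPKM for pcna.L. Their part in the helicase values was not tested. Genes that all cells use, such as prpf8, upf1 and eif4a3, were also at 0 in both libraries, and a helicase at 0 is therefore only described as listed at 0.

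Of the 62 helicase names, 10 (16.1%) were detected, and 4.39% of all gene names passed the same limit. Many of the other names are numbered gene models. Among the 20705 names that are not such models, 8.5% passed, so the gap to the helicases was smaller within that set. All 10 detected names were DEAD-box names, 23.3% of the 43. None of the 19 DEAH-box names had a value above 0 in either library. The same held for 93.2% of all gene names and for 87.2% of those that are not numbered models, so a set of 19 names with no value is close to the background. The detected names belonged to 7 symbols, namely ddx19b, ddx17, ddx3x, ddx39b, ddx23, ddx6 and ddx42. A further 3 DEAD-box names had a value above 0 without passing the limit, and 49 names (79.0%) were listed at 0 in both libraries.

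The highest helicase mRNA was ddx19b.L, on chromosome 7L of the v9.2 genome from position 121467709 to 121492660. Its product is the counterpart of human DDX19B and yeast Dbp5, which strips proteins from mRNA as it leaves the nuclear pore. It had 2904 and 2435 FPKM in replicates 1 and 2, a fold of 1.19 between the libraries. By level it ranked 41 of the 3148 gene names above 0 in replicate 1 and 65 of the 2873 in replicate 2. This name alone took 66.8% of the helicase FPKM in replicate 1 and 68.0% in replicate 2.

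Next was ddx17.L, on chromosome 4L from position 113004186 to 113028602. In mammals DDX17 (p72) acts with its paralog DDX5 in transcription, splicing and microRNA processing. It had 1041 and 697 FPKM in replicates 1 and 2, ranks 118 and 190. Its paralog ddx5.L, on chromosome 9_10L, had 0.352 and 0.435 FPKM in replicates 1 and 2. The ratio of the ddx5.L values, 1.24, is what 1 read in replicate 2 and 3 reads in replicate 1 would give, as would any multiple of both. The ratio does not give the number of reads, and ddx5.L was itself among the low names from which the relative depth was read. For both paralogs only the L homeolog is listed by symbol, and in both libraries ddx17.L was the second highest helicase while ddx5.L was under the detection limit.

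**Figure D1:**
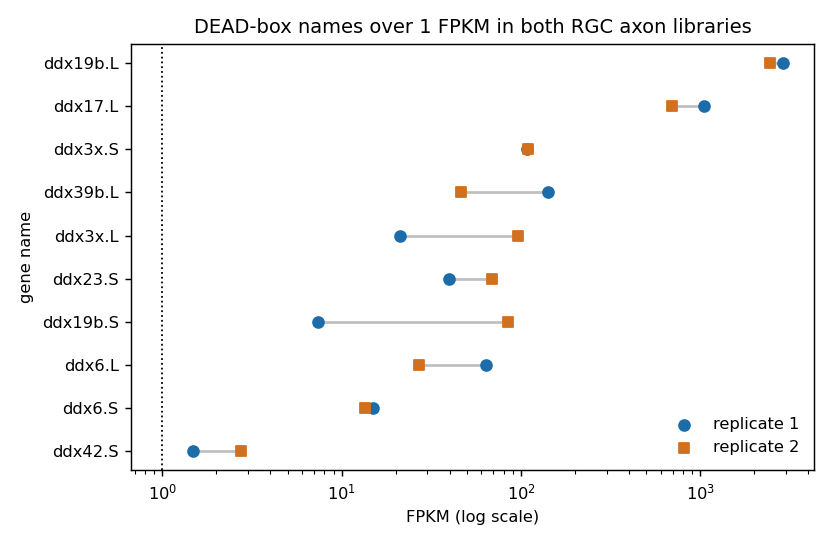
FPKM of the 10 detected helicase names in each RGC axon library, on a log axis; circles are replicate 1, squares replicate 2, grey lines join them, and the dotted line is the detection limit of 1 FPKM. The values of ddx19b.L (2904 and 2435 FPKM) and ddx17.L (1041 and 697 FPKM) lie above all others, and ddx19b.S has the widest gap between the libraries (7.36 and 84.4 FPKM).

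Both homeologs of ddx3x were detected. Its product promotes the translation of mRNAs with structured leaders, and the S homeolog carries the older frog name an3, given to an mRNA localized in the oocyte. The S homeolog, on chromosome 2S from position 46064361 to 46081252, had 108 and 109 FPKM in replicates 1 and 2. The L homeolog, on chromosome 2L from position 76859207 to 76878352, had 21.1 and 96.3 FPKM in replicates 1 and 2. The S values differed little between libraries, and the L homeolog was lower than S in both, close to it in replicate 2 only. The other names of the export and translation group were at 0 in both libraries: dhx29, which helps the ribosome scan structured leaders in mammals, dhx33, and ddx25, known in the frog as deadsouth of the germ plasm.

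The ddx39b.L mRNA had 141 and 46.0 FPKM in replicates 1 and 2. It lies on chromosome 8L from position 52305242 to 52331612 and codes for UAP56, which takes part in both spliceosome assembly and mRNA export. A second gene, dxo.L, is listed at the same locus, at 0 in both libraries. The close relative ddx39a was at 0 on the row that names its L and S forms. A row named ddx39, counted here as a symbol of its own, was also at 0. Of the other splicing helicases, ddx23.S had 39.7 and 69.2 FPKM in replicates 1 and 2. In human cells DDX23 belongs to the U5 snRNP. The ddx42.S mRNA, whose human counterpart binds the U2 snRNP, was close to the limit with 1.48 and 2.75 FPKM. The ratio of these values, 1.86, is that of 1 read in replicate 2 to 2 reads in replicate 1, or of any multiple of both. It does not give the number of reads, and ddx42.S was also among the low names from which the relative depth was read. The remaining splicing helicases, among them ddx46, ddx41 and the DEAH-box proteins dhx8, dhx15, dhx16, dhx35 and dhx38, were at 0 in both libraries. Thus 3 of 12 splicing symbols were detected, or 3 of 15 names, where 8.5% of all names that are not numbered models passed.

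Both homeologs of ddx6 were detected as well. Its product represses and stores mRNAs, in the frog oocyte as Xp54, and is a core protein of P-bodies. The L homeolog, on chromosome 7L from position 73813961 to 73848938, had 64.0 and 27.1 FPKM in replicates 1 and 2. The S homeolog, placed on Scaffold80, had 14.9 and 13.5 FPKM in replicates 1 and 2. The L homeolog was the higher in both libraries. The other symbol of this group, dhx34, which acts in nonsense-mediated decay in mammals, was at 0.

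**Figure D2:**
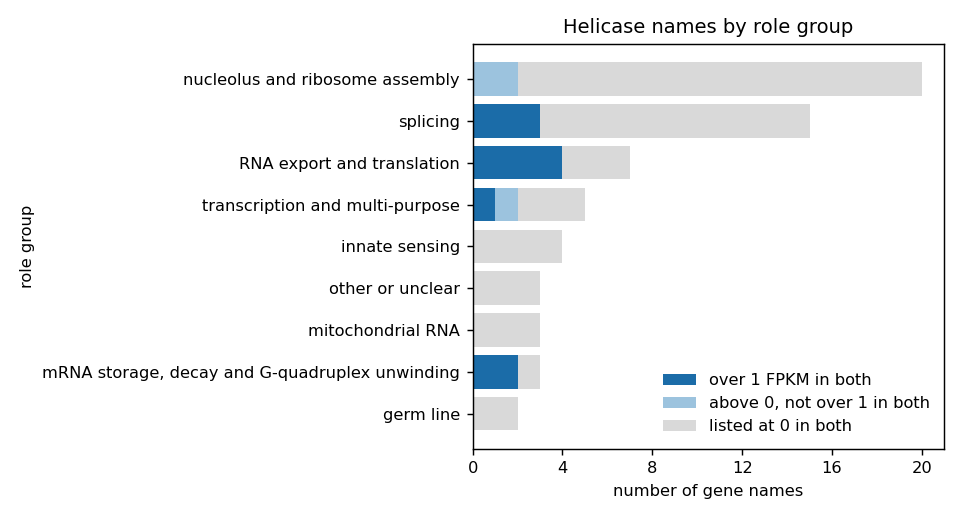
Number of helicase gene names in each role group, split into names over 1 FPKM in both libraries, names above 0 that did not pass, and names listed at 0 in both. None of the 20 nucleolus and ribosome assembly names passed, 4 of 7 names of RNA export and translation did, and 3 of 15 of splicing. The 4 export and translation names belong to 2 symbols. Of all gene names 4.39% passed, and 8.5% of those that are not numbered gene models.

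The largest group, helicases of the nucleolus and of ribosome assembly, had no detected member among 20 names and 14 symbols. Since 8.5% of all names that are not numbered models passed, 20 names without a detected one are close to the background. In this group ddx21.L, the nucleolar helicase first described as Gu, had 1.14 FPKM in replicate 1 and was at 0 in replicate 2, and ddx56.L had 0.299 FPKM in replicate 1 and was at 0 in replicate 2. The other 18 names, among them ddx10, ddx18, ddx27, ddx47, ddx54 and dhx37, were at 0 in both libraries. Members listed under a gene number alone escape a choice by symbol. By gene ID, 11 numbered gene models carry a ddx or dhx symbol in the RefSeq table of the assembly v10.1, and they were looked up after the values of the named members were known. One of the 11 was detected: LOC398189, named ddx21.S in that table, had 157 and 61.1 FPKM in replicates 1 and 2. It is listed on chromosome 7S from position 22336232 to 22351782 with no other gene at its locus. The other 10, which include the L homeolog of ddx23 and both homeologs of dhx36, were at 0 in both libraries. With these 11 added, 11 of 73 names were detected, none of them a DEAH-box name. With LOC398189 taken as ddx21.S, the count for the nucleolar group rests on how its members were named, and the S homeolog of ddx21 stood above the L homeolog in both libraries.

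The remaining groups had no detected name apart from ddx17.L. Of the other helicases of transcription or many uses, ddx1.L, ddx20.L and dhx9.L were at 0, and ddx5.L was below the limit. The RNA sensors of innate immunity, ddx58 (RIG-I), dhx58 (LGP2) and ddx60, were at 0 under all 4 names, as were ddx28 and dhx30 of mitochondrial RNA under 3 names. The germ line helicases ddx4 (vasa) and ddx43 were at 0, and so were ddx59 and dhx32, which were not placed in a role group.

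The levels of the detected helicases spread over those of all detected names. Their median was 51.8 FPKM in replicate 1, where the median of all names over the limit was 27.3 FPKM, and 76.8 FPKM in replicate 2, where it was 31.0 FPKM. In replicate 1, 6 of the 10 lay above that median, and in replicate 2, 7 of 10, near the 5 of 10 that a median sets for all names. Added up, the helicase names held 0.700% of all FPKM in replicate 1 and 0.494% of it in replicate 2. Without ddx19b.L the average share fell from 0.597% to 0.195%. The order of the levels was only partly resolved by 2 libraries. The values of ddx19b.L, of ddx17.L and of ddx42.S overlapped with those of no other detected helicase. Each of the other 7 names overlapped in its range of values with at least one of these 7.

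**Figure D3:**
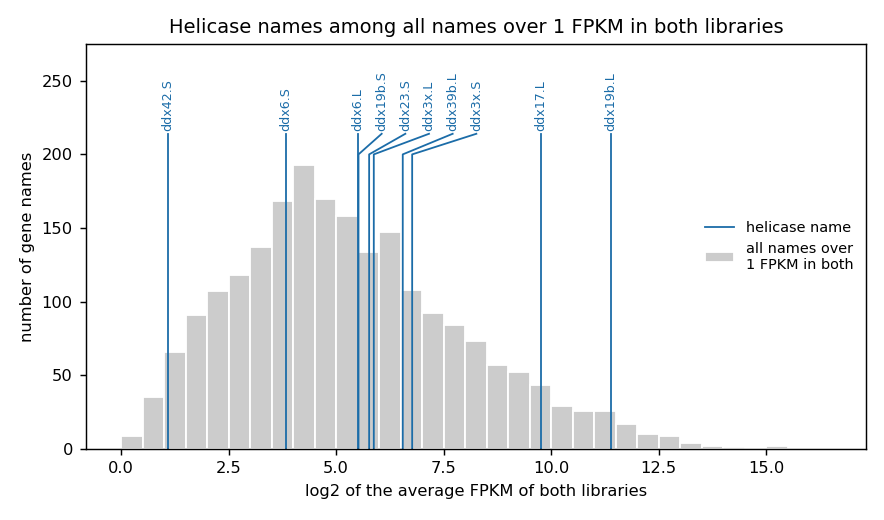
Histogram of the log2 average FPKM of all 2168 gene names over 1 FPKM in both libraries (grey), with the 10 detected helicase names as vertical lines. Most helicases lie to the right of the peak of the histogram, ddx19b.L and ddx17.L far to the right, and ddx42.S lies in the lower tail.

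The libraries were compared name by name on FPKM + 1. Of the 11 helicase names over 1 FPKM in at least one library, 2 differed by more than 4-fold between the libraries, and of all such names 17.7% did. These were ddx19b.S, with 7.36 and 84.4 FPKM in replicates 1 and 2, and ddx3x.L, both higher in the less deeply sequenced library. With a pseudocount of 10, or with the libraries scaled to the same median, ddx3x.L no longer passed and 1 name was left. Of the 10 detected names, 5 were higher in replicate 1 and 5 in replicate 2. On the log2 scale of FPKM + 1, the absolute difference between replicates had a median of 0.69 for the 10 helicases and of 0.98 for all detected names.

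By listed name, homeologs could be compared for 3 symbols, those with separate L and S names of which at least one was over 10 FPKM in a library. Pairs that need a numbered gene model were not counted. By the v10.1 symbols, the model for ddx23.L was at 0 in both libraries, and ddx23.S had 39.7 and 69.2 FPKM. LOC398189, as ddx21.S, had 157 and 61.1 FPKM, and ddx21.L had 1.14 and 0 FPKM. Of the 3 pairs by listed name, the ddx19b pair alone lay over 4-fold apart with the same homeolog ahead in each library. Of all homeolog pairs by listed name at this level, 73.2% did. The L homeolog of ddx19b exceeded ddx19b.S 348-fold in replicate 1 and 28.5-fold in replicate 2, on FPKM + 1. The size of this difference rests on ddx19b.S, which lies on chromosome 7S from position 87075673 to 87090914. For ddx3x, the S homeolog was 4.95-fold higher in replicate 1 and 1.14-fold higher in replicate 2. For ddx6, the L homeolog was 4.10-fold higher in replicate 1 and 1.93-fold higher in replicate 2. By replicate 1 alone all 3 pairs were more than 4-fold apart. Since reads can be placed on the wrong one of 2 similar homeologs, the division of a pair carries that uncertainty. Of the other 12 pairs, 10 were at 0 for both homeologs in both libraries.

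**Figure D4:**
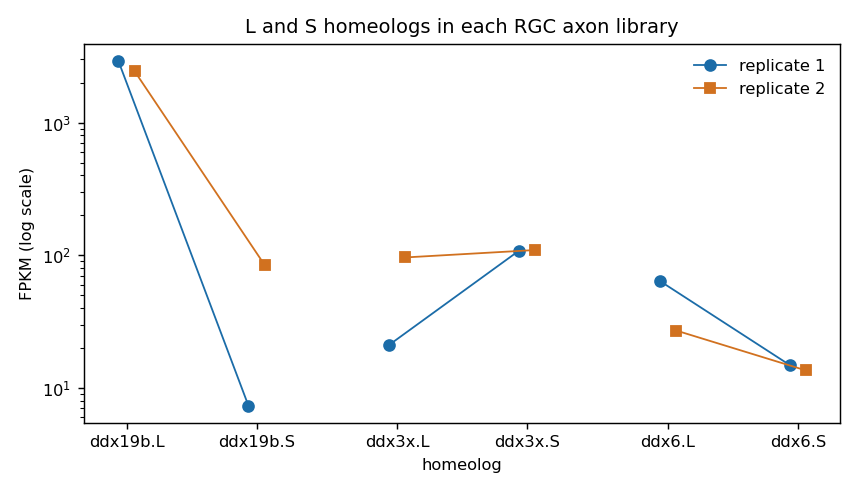
FPKM of the L and S homeologs of ddx19b, ddx3x and ddx6 in each RGC axon library, on a log axis; lines join the homeologs within a library. The L homeolog of ddx19b is higher in both libraries, from 7.36 FPKM for S to 2904 FPKM for L in replicate 1, while the libraries differ on the size of the gap for ddx3x and ddx6.

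Detected helicases came from both subgenomes, with 5 of 40 L names and 5 of 20 S names. The share of all L names and of all S names over the limit was not computed, so no difference between subgenomes is read from these counts. Names alone at their listed locus were compared for locus span, which includes introns and is not transcript length. The 9 detected names of this kind spanned 15.2 to 35.0 kb (median 19.1 kb), and the 33 such names at 0 in both libraries spanned 0.244 to 55.8 kb (median 21.0 kb). The span did not separate the detected helicases from those at 0.

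Helicases with other names and the known partners of the members were described from lists chosen by function. A symbol was counted as detected when any of its names passed. Of single names 4.39% passed, and 8.5% of those that are not numbered models. No such share was computed per symbol, so the counts below were not compared with a background. Of 12 listed relatives of the same superfamily, 1 was detected, ascc3.L, a helicase of ribosome quality control, with 10.6 and 5.10 FPKM in replicates 1 and 2. The initiation factor eif4a1.L, a DEAD-box protein by sequence under another name, had 0.144 and 1.07 FPKM in replicates 1 and 2, and eif4a2 and eif4a3 were at 0. Of 46 listed partners, 12 were detected. Values follow for 8 of these, and the other 4 were thoc2, gemin2, gpatch2 and prpf6.

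Of the 10 listed partners of the export helicases, 2 were detected, thoc2 and alyref. The adaptor alyref.L, which ddx39b loads onto mRNA, had 1833 and 1514 FPKM in replicates 1 and 2. The export partners thoc1, thoc3, thoc5, thoc6, thoc7 and sarnp were at 0 in both libraries. The listed partners of ddx19b were low or at 0, with 0.99 and 1.55 FPKM for gle1.L and 0 in both libraries for nup214.L. Of 9 listed storage and decapping partners of ddx6, 2 were detected. The lsm14b.L mRNA had 238 and 119 FPKM, and lsm14a.L had 1.08 and 19.5 FPKM. The decapping factors edc3, edc4, dcp1a and dcp2 were at 0 in both libraries, and so were patl1, eif4enif1 and cnot1. Granule proteins known to bind ddx3x or to share its granules were present under 3 of 4 symbols. They were g3bp2.S with 438 and 296 FPKM, g3bp1.S with 52.2 and 80.4 FPKM and caprin1.L with 68.6 and 19.8 FPKM. The other homeolog g3bp2.L was also detected, with 41.1 and 96.9 FPKM in replicates 1 and 2. The names g3bp1.L and the one joining both caprin1 homeologs did not pass the limit. Of the exon junction partners of eif4a3, casc3.L had 2616 and 2494 FPKM in replicates 1 and 2. The partner rbm8a.L had 1.44 and 0 FPKM and did not pass the limit, and magoh was at 0. A name joining both casc3 homeologs had 2.385 and 44.26 FPKM. Of 6 listed G-patch proteins, which activate DEAH-box helicases, 2 were detected, gpatch2 and pinx1. The pinx1.L mRNA had 450 and 356 FPKM, although dhx15, the helicase that pinx1 is known to bind, was at 0 under both names.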

How the data were processed

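RGC axon RNA from 2 replicate cultures was reverse transcribed and amplified by PCR, with a modified single-cell protocol. Read mapping by the authors used HISAT2 2.1.0 and the frog genome v9.2, and FPKM came from Cufflinks 2.1.1; the deposited FPKM values, 1 per row and library, were used as they are. The annotation is not given in the sources used here. FPKM holds no counts, so no interval or floor was computed. PCR adds an error that depth does not show.

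Rows of a gene name were summed; no helicase name stands on more than 1 row. A difference between libraries or homeologs was taken on FPKM + 1 (pseudocount 1). A single condition gives no test. By the study's methods, each replicate of a frog experiment used its own batch of embryos. Relative depth was read from names under 5 FPKM in both libraries (140 of 621 on the steps). On simulated data the method recovered 18 of 20 ratios within 5%, and 18 was the least number accepted. The simulated counts held no PCR error and no reads shared between homeologs, so the accuracy for these libraries was not tested. Gene IDs were matched to RefSeq v10.1: of 19 helicase names with a LOC number, 17 carry the same symbol there. No sequences were used here.

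The members and lists were chosen with earlier results of these data known. Named genes were the detected members, members on either side of the limit, homeolog pairs and detected partners. Alternatives varied the limit, rows, background, pseudocount, fold and libraries. Python 3.11.15, numpy 2.4.6, pandas 2.3.3 and matplotlib 3.10.9 were used.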

Additional observations from a re-analysis of the deposited data

Results flagged for a closer look

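A numbered gene model outside the helicases chosen by symbol had a clear signal: LOC398189, named ddx21.S in RefSeq v10.1, had an average of 109 FPKM over the 2 libraries, with 157 and 61.1 FPKM in replicates 1 and 2, a fold of 2.57. By average level it lay between ddx17.L and ddx3x.S, very close to the 108.9 FPKM of ddx3x.S. The libraries did not agree on the order. Among all names LOC398189 ranked 437 in replicate 1 and 810 in replicate 2, and ddx3x.S ranked 530 and 611. No control library was analysed here, and the identity of the model rests on its gene ID alone.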

How the results depend on the processing

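Of 39 alternatives for 8 results, 31 gave a value within 1.5 times the one reported. Names with a second part left out gave 5 detected names in place of 10, since such rows carry ddx19b.L, ddx3x.S, ddx23.S, ddx6.S and ddx42.S; the LOC numbers on 3 of these 5 have the same symbol in RefSeq. The share of detected helicases was 3.67 times that of all names, and 1.90 times with the background limited to names that are not numbered gene models. With helicases and background both limited to names above 0 in at least 1 library, the ratio was 1.18. There 10 of 13 helicase names and 2168 of 3336 names in all were detected. The helicase share of summed FPKM, 0.597%, was 0.195% without ddx19b.L. Homeolog pairs apart, among those by listed name, numbered 1 to 3 in single libraries. Helicase names apart between the libraries, 2 at first, numbered 1 with a pseudocount of 10, 5 at 2-fold and 1 with the libraries scaled to the same median. No DEAH-box name was above 0 at any limit run. No paired analysis was possible because the samples form a single group. Depth is unknown, so a helicase listed at 0 may be absent or missed. Values near 1 FPKM may rest on few reads, but FPKM does not give their number.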
